A study of Mus musculus with 19 samples.

Results

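Genes that direct retinal progenitors toward amacrine and horizontal cells, with genes that these inhibitory interneurons use, were examined in embryonic mouse retinal ganglion cells (RGCs). The set was Ptf1a, Prdm13, Tfap2a, Tfap2b, Gad1, Slc32a1, Slc6a9, Onecut1, Onecut2 and Prox1, taken by name through their Ensembl identifiers. All 10 were among the 47069 genes of the deposited count tables. RGCs whose axons stay on their own side of the brain (iRGCs) were compared with RGCs whose axons cross the midline (cRGCs), to find what sets the populations apart while their axons reach the optic chiasm. Both came from retinas of E16.5 embryos of C57/DBA F1 strain, male and female pooled, labelled WT for genotype, in which Cre recombinase switches on the nuclear envelope protein Sun1-GFP from a reporter cassette. iRGCs were GFP-positive cells sorted from retinas with Slc6a4-Cre, and cRGCs were GFP-positive cells sorted from retinas with Pou4f2-Cre, a knock-in at the Brn3b locus, after the ventrotemporal region had been cut away. The label persists in the descendants of any cell in which Cre has acted, and the region of the retina and the Cre line differ together between the populations, so their effects cannot be told apart. PolyA RNA was sequenced in 3 libraries per population, with 28193178 to 33638083 reads counted on genes. The sources used here do not say whether libraries came from separate litters, so p-values measure the spread between these libraries.

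Retinal progenitors give rise to RGCs, horizontal cells, amacrine cells and photoreceptors in overlapping waves. Foxn4 makes progenitors competent for amacrine and horizontal fates, and its target Ptf1a, a basic helix-loop-helix factor, commits cells to these fates at the expense of RGCs. Prdm13 and the AP-2 factors Tfap2a and Tfap2b act downstream of Ptf1a, Onecut1, Onecut2 and Prox1 serve horizontal cell formation, and the Onecut factors are also made in RGC precursors and RGCs. Mature amacrine and horizontal cells release GABA or glycine, for which they need synthesis enzymes such as Gad1 and the transporters Slc32a1 and Slc6a9.

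The populations were first set against their labels. Levels are given in CPM, counts scaled to library size with edgeR's TMM factors, in replicates 1, 2 and 3. Slc6a4, the serotonin transporter gene whose regulatory region drives Cre in iRGCs, was at 2.06, 33.4 and 116 CPM in iRGCs and at 48.1, 35.4 and 30.5 CPM in cRGCs. Its levels overlapped between the populations, iRGC replicate 1 was the lowest of all libraries, and its log2 fold change of 0.41 ± 0.929 (SE) did not pass the test (adjusted p = 0.768, edgeR). Zic2, the transcription factor that marks iRGCs, did separate them, at 134, 173 and 157 CPM in iRGCs and 57.0, 60.2 and 65.7 CPM in cRGCs (log2 fold change 1.34 ± 0.128, adjusted p = 2.088e-04). Pou4f1 and Pou4f2, transcription factors of RGCs, were both lower in iRGCs, by log2 fold changes of -2.28 and -1.15. Log2 fold changes are positive where iRGCs were higher and come with their SE, and the adjusted p is that of edgeR's quasi-likelihood test over the 15941 genes with enough counts.

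Single libraries stood apart in other cell types. iRGC replicate 2 held the most RNA of mural cells, 157 CPM summed over 6 markers against 19.2 and 23.7 CPM in the other iRGC libraries, and the most erythroid RNA, 92.7 CPM against 12.2 and 15.2 CPM. cRGC replicate 2 had the highest summed level of 15 retinal progenitor markers among cRGCs, 2157 CPM against 827 and 1381 CPM in replicates 1 and 3. cRGC replicate 3 had low levels of several RGC genes, as for Thy1 at 3.19 CPM against 46.5 and 39.1 CPM in replicates 1 and 2. Values without single libraries among these are given below for most of the 10 genes and for some other results, but not for every gene and library.

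All 10 genes had enough counts to be tested, and 7 of them were higher in iRGCs at an adjusted p under 0.1, the threshold for a call. Over all tested genes 23.3% were called higher in iRGCs and 23.1% lower. The same 7 genes also changed by more than 1 on the log2 scale, as did 12.1% of all tested genes upward and 11.0% downward. In each of the 7 every iRGC library was above every cRGC library, which held for 27.1% of all tested genes, and 28.2% of tested genes showed the opposite separation. None of the 10 was called lower by edgeR, where 1 of them reached an unadjusted p under 0.05, whereas DESeq2 and limma voom each called 2 lower, Onecut1 and Onecut2. The median log2 fold change of the 10 genes was 1.44, and that of all tested genes was -0.0031. RNA was taken from pools of sorted cells, in which fewer cells of a type and less RNA per cell cannot be told apart.

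**Figure D1:**
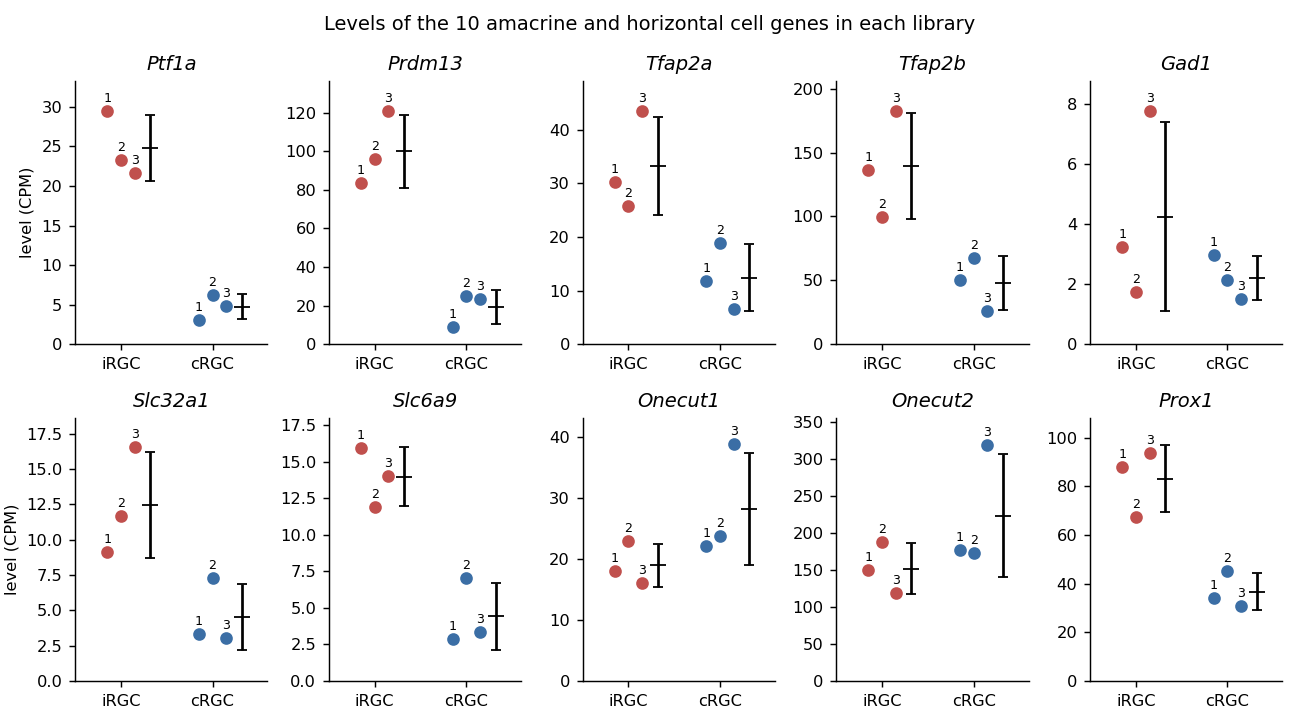
Level in CPM (vertical axis, from 0) of each of the 10 genes in the 3 iRGC libraries (red) and the 3 cRGC libraries (blue), numbered by replicate, with the mean and SD of each population in black. The libraries separate for 7 genes and overlap for Gad1, Onecut1 and Onecut2.

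Ptf1a and Prdm13 had the largest log2 fold changes of the set, and their upstream regions are shown for this reason. The 250 bases before the RefSeq transcription start are given 5′ to 3′ on the gene's strand (GRCm38.p6), from chr2:19445413-19445662 on the plus strand for Ptf1a and from chr4:21685964-21686213 on the minus strand for Prdm13. Capitals mark TTCCCA or its reverse complement, the letters of the TC-box that forms part of the site bound by the PTF1 complex, which contains Ptf1a.
Ptf1a: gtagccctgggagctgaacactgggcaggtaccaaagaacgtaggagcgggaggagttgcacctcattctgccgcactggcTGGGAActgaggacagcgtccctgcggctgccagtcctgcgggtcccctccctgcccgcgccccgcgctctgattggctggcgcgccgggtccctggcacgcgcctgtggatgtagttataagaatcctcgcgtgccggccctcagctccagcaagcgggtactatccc
Prdm13: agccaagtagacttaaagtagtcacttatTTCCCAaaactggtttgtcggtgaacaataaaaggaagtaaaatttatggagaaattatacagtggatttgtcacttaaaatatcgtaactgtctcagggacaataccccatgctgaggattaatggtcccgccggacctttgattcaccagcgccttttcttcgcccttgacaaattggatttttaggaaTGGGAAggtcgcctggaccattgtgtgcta
TTCCCA occurred 1 time upstream of Ptf1a and 2 times upstream of Prdm13. Neither window held an E-box, CANNTG, the letters that basic helix-loop-helix factors bind. Motifs were searched on both strands in 300-base windows, 250 before to 50 after each RefSeq start. For 9 of the 10 genes at least 1 window was searched, 13 windows in all. No window of Onecut2 was searched, so the counts out of 13 say nothing about this gene. TTCCCA was found in 5 of the 13 windows and in 25.6% of all 32851 mouse windows, and the longer TTTCCCA, which contains it, in 2 of 13 and 8.06%. CANNTG was found in 6 of 13 and in 72.3% of all windows, and its form CAGCTG in 0 of 13 and 16.3%. The AP-2 letters GCCNNNGGC were found in 1 window, that of Ptf1a, and in 16.6% of all windows. Of the Onecut letters, ATCAAT was found in 2 of 13, 1 of Tfap2b and 1 of Slc6a9, and in 7.54% of all windows, and ATCGAT in 0 of 13 and 0.925%. A match is a description of letters in the reference and was not measured as binding.

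Ptf1a (ENSMUSG00000026735, chr2:19445663-19447501, plus strand) was at 29.5, 23.2 and 21.7 CPM in iRGCs and at 3.08, 6.28 and 4.87 CPM in cRGCs. These levels rested on 917, 752 and 688 reads in iRGCs and on 80, 182 and 151 in cRGCs. The lowest iRGC library lay well above the highest cRGC library. The log2 fold change was 2.38 ± 0.293, a 5.22-fold higher level in iRGCs (95% interval on the log2 scale 1.72 to 3.05, adjusted p = 4.001e-04). Leaving out any 1 library kept it within 2.15 and 2.65. The exons of Ptf1a share 40.4% of their bases with the antisense gene Ptf1aos, on which at most 13 reads were counted in a library.

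Prdm13 (ENSMUSG00000040478, chr4:21677480-21685963, minus strand), a zinc finger factor that favours GABAergic and glycinergic amacrine cells, reached higher counts. It was at 83.3, 95.8 and 121 CPM in iRGCs and at 9.03, 25.0 and 23.6 CPM in cRGCs. All iRGC libraries were above all cRGC libraries, and cRGC replicate 1 was lowest for Prdm13 as for Ptf1a, while the order of the iRGC libraries was opposite for these genes. The log2 fold change was 2.38 ± 0.344 (adjusted p = 7.897e-04), and 2.03 without cRGC replicate 1.

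The paralogues Tfap2a and Tfap2b, which act redundantly in amacrine and horizontal cells, rose less. Tfap2a (ENSMUSG00000021359, chr13:40715302-40738376, minus strand) was at 30.3, 25.9 and 43.6 CPM in iRGCs and at 11.8, 18.9 and 6.58 CPM in cRGCs, with a log2 fold change of 1.42 ± 0.365 (adjusted p = 0.0135). Tfap2b (ENSMUSG00000025927, chr1:19208914-19238576, plus strand) was at 136, 99.9 and 183 CPM in iRGCs and at 50.5, 67.5 and 26.0 CPM in cRGCs, with a log2 fold change of 1.54 ± 0.334 (adjusted p = 0.00592). Both genes were highest in iRGC replicate 3 and lowest in cRGC replicate 3, and the populations did not overlap for either. Without cRGC replicate 3 their log2 fold changes were 1.11 and 1.24, and without cRGC replicate 2 they were 1.87 and 1.89.

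Counted per kilobase of exon within each library, Tfap2b exceeded Tfap2a by a ratio of 3.47, 2.99 and 3.24 in iRGCs and 3.31, 2.75 and 3.05 in cRGCs. The ratio varied little while the level of each gene differed several-fold between libraries. Its log2 difference between the populations was 0.09 (exact permutation test, two-sided, p = 0.5, where 3 libraries against 3 cannot go below 0.1).

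Of the other AP-2 family genes, Tfap2c was higher in iRGCs and Tfap2d lower. Tfap2c was at 8.75, 8.50 and 15.1 CPM in iRGCs and at 3.15, 1.69 and 1.00 CPM in cRGCs (log2 fold change 2.47, adjusted p = 0.00359). Tfap2d, which is made in RGCs, was at 7.01, 13.7 and 17.3 CPM in iRGCs and at 38.91, 40.9 and 34.2 CPM in cRGCs (log2 fold change -1.58, adjusted p = 0.00288). Tfap2e had no count in any library.

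**Figure D2:**
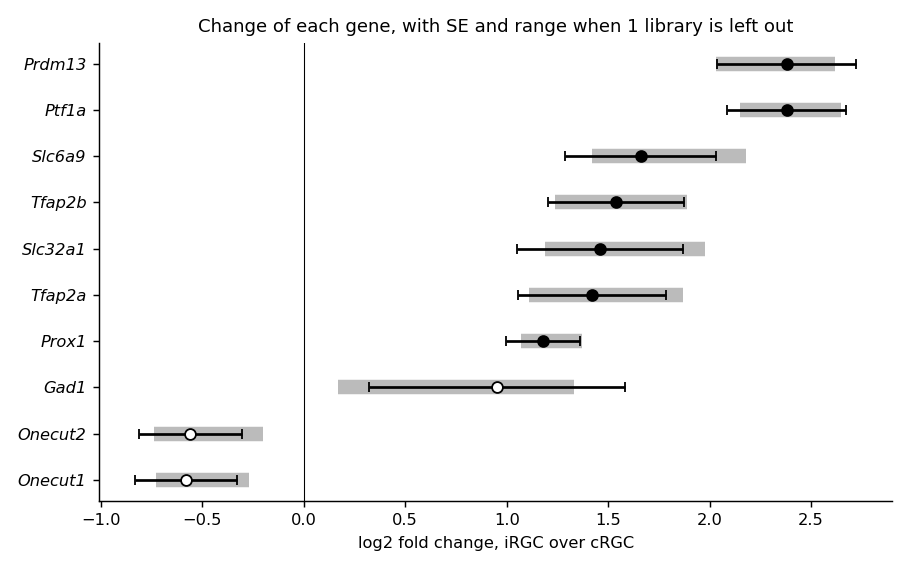
Log2 fold change of iRGCs over cRGCs (horizontal axis) for each of the 10 genes, as circles with SE bars, filled where the adjusted p is under 0.1 and open where it is not. Grey bars span the values without each single library, and all of them keep their side of 0, from 2.15 to 2.65 for Ptf1a and from -0.73 to -0.27 for Onecut1.

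Of the genes for inhibitory transmission, both transporters rose and the enzyme did not pass the test. Slc6a9 (ENSMUSG00000028542, chr4:117834506-117875198, plus strand), the glycine transporter GlyT1, was at 15.9, 11.9 and 14.0 CPM in iRGCs and at 2.88, 7.04 and 3.32 CPM in cRGCs. The populations did not overlap, and cRGC replicate 2 was the nearest to the iRGC libraries. The log2 fold change was 1.66 ± 0.371 (adjusted p = 0.00696), 2.18 without cRGC replicate 2 and 1.42 without cRGC replicate 1. Slc6a9 shares 30.2% of its exon bases with other genes, of which the protein-coding genes Ccdc24 and B4galt2 on the opposite strand were both lower in iRGCs (log2 fold changes -1.85 and -0.86).

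Slc32a1 (ENSMUSG00000037771, chr2:158610767-158615748, plus strand), the transporter VGAT that fills vesicles with GABA and glycine, was at 9.13, 11.7 and 16.52 CPM in iRGCs and at 3.31, 7.25 and 3.03 CPM in cRGCs. The populations did not overlap, and cRGC replicate 2 lay nearest to iRGC replicate 1. The log2 fold change was 1.46 ± 0.407 (adjusted p = 0.0195), and 1.98 without cRGC replicate 2. It was weaker without iRGC replicate 3 (1.19, adjusted p = 0.0713), cRGC replicate 1 (1.26, adjusted p = 0.0747) or cRGC replicate 3 (1.23, adjusted p = 0.0759).

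Gad1 (ENSMUSG00000070880, chr2:70553072-70602014, plus strand), the GABA-synthesizing enzyme GAD67, was low in every library. It was at 3.25, 1.73 and 7.79 CPM in iRGCs and at 2.96, 2.14 and 1.52 CPM in cRGCs, on 47 to 247 reads per library. iRGC replicate 3 stood well above the cRGC libraries and replicate 1 just above them, while replicate 2 was within their range. The log2 fold change of 0.95 ± 0.631 did not pass the test (95% interval -0.48 to 2.38, adjusted p = 0.274), and it was 0.17 without iRGC replicate 3. Its relative Gad2, the GAD65 enzyme, had far more RNA, at 75.2, 77.9 and 69.2 CPM in iRGCs and 51.7, 45.1 and 55.2 CPM in cRGCs, and was higher in iRGCs (log2 fold change 0.55, adjusted p = 0.00719). Gad2 was named after its values were seen.

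The ratio of Slc32a1 to Gad1 per kilobase of exon was 7.66, 18.3 and 5.79 in iRGCs and 3.05, 9.20 and 5.43 in cRGCs. It overlapped between the populations and varied widely within each (log2 difference 0.80, exact permutation test, two-sided, p = 0.4). With 1 library left out the log2 difference ranged from 0.32, without iRGC replicate 2, to 1.20, without cRGC replicate 2.

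Among the horizontal cell factors, Prox1 was higher in iRGCs, whereas Onecut1 and Onecut2 had slightly lower means there. Prox1 (ENSMUSG00000010175, chr1:190118035-190170714, minus strand), a homeobox factor of horizontal and AII amacrine cells, was at 88.0, 67.5 and 93.7 CPM in iRGCs and at 34.0, 45.1 and 31.0 CPM in cRGCs. The populations did not overlap. Its log2 fold change of 1.18 ± 0.183 was the smallest of the 7 that rose and had the smallest SE of the 10 (adjusted p = 0.0011).

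Onecut1 (ENSMUSG00000043013, chr9:74861921-74891781, plus strand) was at 18.0, 22.8 and 15.9 CPM in iRGCs and at 22.1, 23.7 and 38.7 CPM in cRGCs. Onecut2 (ENSMUSG00000045991, chr18:64340020-64400987, plus strand) was at 150, 187 and 119 CPM in iRGCs and at 178, 174 and 320 CPM in cRGCs. Both overlapped between the populations, with iRGC replicate 2 inside the cRGC range and cRGC replicate 3 far above all other libraries. The log2 fold change was -0.58 ± 0.251 for Onecut1 (95% interval -1.15 to -0.01, adjusted p = 0.103). For Onecut2 it was -0.56 ± 0.254 (95% interval -1.13 to 0.02, adjusted p = 0.117). Without cRGC replicate 3 the values shrank to -0.27 and -0.20, while without cRGC replicate 1 they were -0.73 and -0.70, with adjusted p of 0.0783 and 0.0961.

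The ratio of Onecut2 to Onecut1 per kilobase of exon was 2.12, 2.08 and 1.88 in iRGCs and 2.03, 1.85 and 2.09 in cRGCs. The library that was high for one of these genes was high for the other, and the ratio differed by 0.02 on the log2 scale (exact permutation test, two-sided, p = 0.6). Onecut1 shares 52.8% of its exon bases with Gm20649 on the same strand, which had no count in any library. Whether reads in the shared bases were set aside as ambiguous was not tested. If they were, and levels are taken per kilobase of unshared exon, the ratio is 0.874 to 0.999 over the 6 libraries, so which of these genes had the higher level cannot be told.

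**Figure D3:**
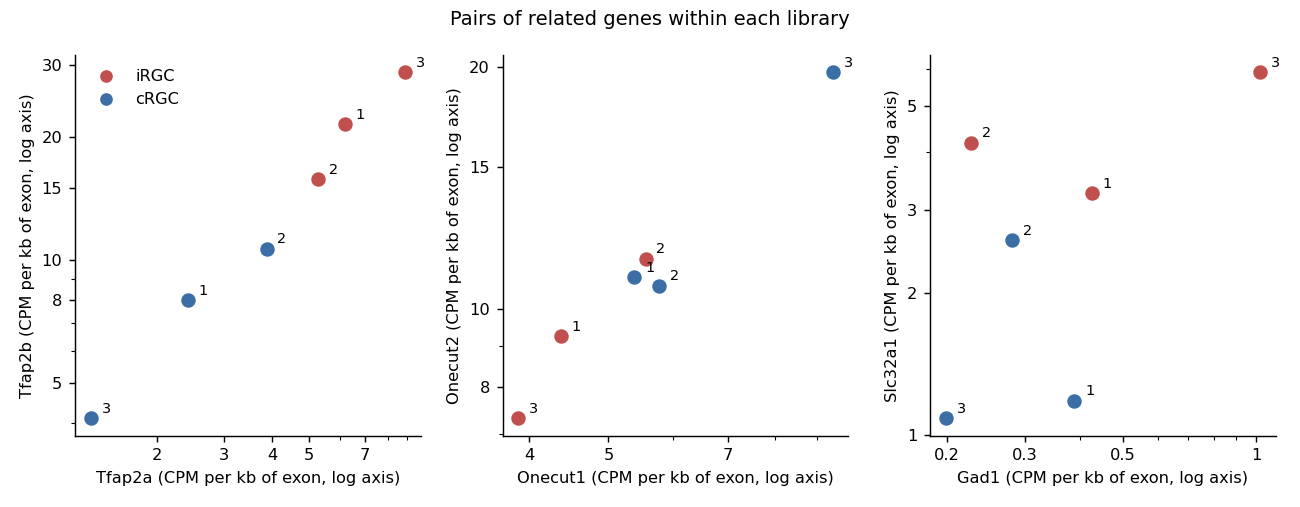
Levels in CPM per kilobase of exon (log axes) of Tfap2b against Tfap2a, Onecut2 against Onecut1 and Slc32a1 against Gad1, with 1 point per library, iRGCs in red and cRGCs in blue, numbered by replicate. The AP-2 and Onecut pairs lie along a line, with ratios of 2.75 to 3.47 and 1.85 to 2.12, and Slc32a1 against Gad1 is scattered, with ratios of 3.05 to 18.3.

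The order of the 10 genes differed between the populations when levels were taken per kilobase of exon. In iRGCs Prdm13 stood first with 23.4 ± 4.45 CPM per kilobase (SD, n = 3), followed by Tfap2b with 22.0 ± 6.57 and Ptf1a with 16.45 ± 2.74. The libraries of these 3 genes overlapped, and all were above those of Prox1 at 9.90 ± 1.64, Onecut2 at 9.37 ± 2.12, Tfap2a at 6.79 ± 1.88, Onecut1 at 4.60 ± 0.861 and Slc32a1 at 4.45 ± 1.34 CPM per kilobase. From Prox1 to Onecut1 each overlapped the next in the order. Slc6a9 at 2.72 ± 0.391 was below the lowest Slc32a1 library, and Gad1 at 0.557 ± 0.413 was below the lowest Slc6a9 library.

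In cRGCs Onecut2 stood first with 13.8 ± 5.13 CPM per kilobase, and its lowest library was just above the highest of Tfap2b. Tfap2b at 7.57 ± 3.29, Onecut1 at 6.86 ± 2.22, Prdm13 at 4.48 ± 2.06, Prox1 at 4.38 ± 0.889, Ptf1a at 3.15 ± 1.07, Tfap2a at 2.54 ± 1.27, and Slc32a1 at 1.62 ± 0.843 CPM per kilobase each overlapped the next, the last of them Slc6a9 at 0.859 ± 0.444. Gad1 was last in both populations and apart from Slc6a9, at 0.289 ± 0.0948 in cRGCs. These orders depend on the exon length used. Per kilobase of exon not shared with another gene, Ptf1a came first in iRGCs, at 27.6 ± 4.59, and overlapped Prdm13, and Onecut1 came first in cRGCs, at 14.5 ± 4.71, and overlapped Onecut2. On that scale Onecut1 also had a higher mean than Onecut2 in iRGCs, at 9.75 ± 1.82, Slc32a1 overlapped Slc6a9 in iRGCs, and Gad1 was still last in both.

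Fate factors that act upstream of Ptf1a or beside it were examined as a list of 14 genes, of which 13 had enough counts. 12 of them were higher in iRGCs and none was lower, with a median log2 fold change of 1.04. Foxn4, the forkhead factor that activates Ptf1a, was at 263, 236 and 216 CPM in iRGCs and at 22.2, 58.5 and 36.5 CPM in cRGCs. Its log2 fold change of 2.61 ± 0.303 (adjusted p = 3.178e-04) was the largest of the list, followed by that of the basic helix-loop-helix factor Neurod4 with 2.44 ± 0.353. The E proteins Tcf3, Tcf4 and Tcf12, partners of Ptf1a in the PTF1 complex, had log2 fold changes of 1.01, 1.04 and 0.93, and Rbpj, another component of the complex, of 0.62. Rbpjl, which replaces Rbpj in the pancreas, had no count in any library. Pax6, which progenitors, RGCs and amacrine cells all make, was at 742, 911 and 860 CPM in iRGCs and at 932, 804 and 972 CPM in cRGCs (log2 fold change -0.11 ± 0.12, adjusted p = 0.528).

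Other genes of amacrine cells did not follow the fate factors. Of 22 such genes 19 were tested, 6 were higher in iRGCs, 8 were lower and 5 were not called, with a median log2 fold change of -0.65. Among the genes that were higher were Dab1, an adaptor of reelin signalling made by AII amacrine cells, with a log2 fold change of 1.31, and Nr4a2, an orphan nuclear receptor of an amacrine subtype, with 1.27. Among those lower were Slc17a8, the glutamate transporter VGLUT3, with -3.67 ± 1.13, and Th, the tyrosine hydroxylase of dopaminergic amacrine cells, with -3.46 ± 0.703. Both were scarce, Slc17a8 reaching 3.45 CPM and Th 19.8 CPM in cRGC replicate 3. Without that library Slc17a8 was at -3.55 and no longer called (adjusted p = 0.101), Th was at -2.71 and still called, and 6 genes of the list were higher and 6 lower.

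Abundant genes of the list changed in both directions. Gad2, described above, was higher in iRGCs, and Calb2 and Barhl2, named after their values were seen, were lower. Calb2, the calcium-binding protein calretinin of amacrine cells and RGCs, was at 30.9, 33.4 and 77.5 CPM in iRGCs and at 218, 202 and 73.5 CPM in cRGCs. cRGC replicate 3 lay below iRGC replicate 3, and the log2 fold change was -1.80 ± 0.456 (adjusted p = 0.0127), and -2.15 without cRGC replicate 3. Barhl2, a homeobox factor of amacrine cells and RGCs, had a log2 fold change of -1.21 ± 0.272. Chat, the enzyme that makes acetylcholine in starburst amacrine cells, was below 1 CPM in every library.

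Of 7 other horizontal cell genes, 6 were tested, 2 were lower in iRGCs, none was higher and 4 were not called, with a median log2 fold change of -0.68. Onecut3, another Onecut paralogue, was at 15.5, 17.0 and 14.0 CPM in iRGCs and at 25.9, 35.2 and 69.0 CPM in cRGCs. Its populations did not overlap, cRGC replicate 3 was again the highest, and the log2 fold change was -1.48 ± 0.328 (adjusted p = 0.00658). It was -0.97 without cRGC replicate 3, where the call held (adjusted p = 0.0158). Lhx1, the LIM homeobox factor that defines horizontal cells, was at 8.59, 5.75 and 4.10 CPM in iRGCs and at 2.92, 4.18 and 2.36 CPM in cRGCs, and its log2 fold change of 0.96 ± 0.431 did not pass the test (adjusted p = 0.111). Gja10, a connexin of mature horizontal cells, was below 1 CPM in every library.

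**Figure D4:**
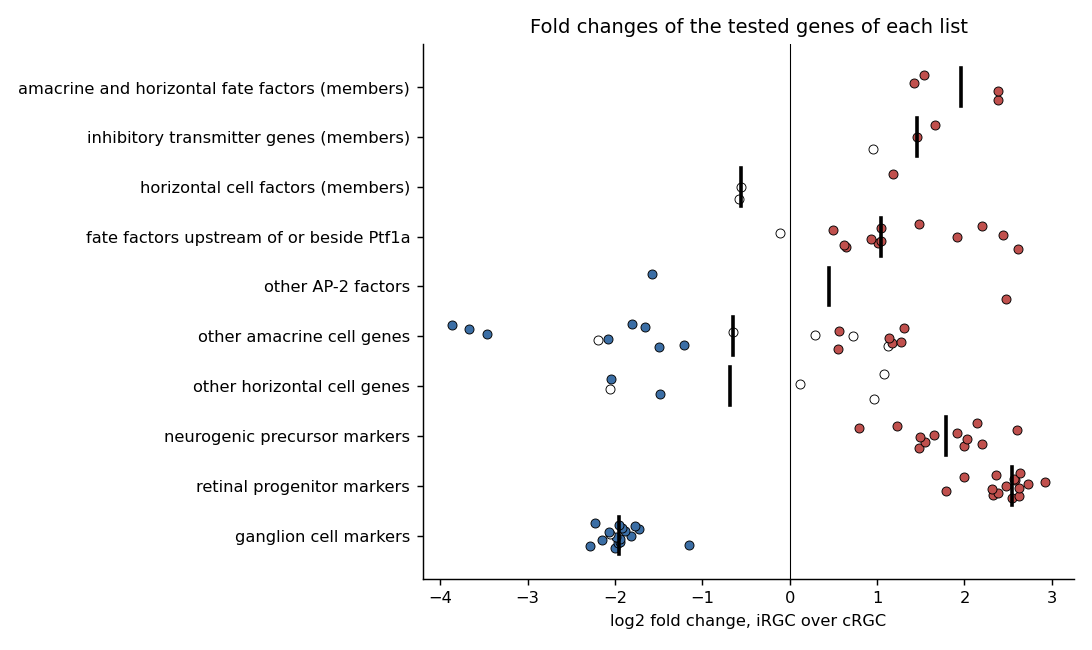
Log2 fold change of iRGCs over cRGCs (horizontal axis) for each tested gene of 10 lists, 1 circle per gene, red where called higher in iRGCs, blue where called lower and open where not called, with the median of each list as a black bar. The fate factors of the set lie between 1.42 and 2.38, other amacrine and horizontal cell genes spread on both sides of 0, progenitor markers have a median of 2.55 and ganglion cell markers of -1.95.

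Markers of retinal progenitors and of neurogenic precursors moved with these results. All 15 tested progenitor markers were higher in iRGCs, with a median log2 fold change of 2.55, led by Sfrp2 at 2.92 and Fgf15 at 2.73. Their summed level was 9610, 8334 and 7249 CPM in iRGCs and 827, 2157 and 1381 CPM in cRGCs, with Ccnd1 the most abundant and none at 0. All 12 neurogenic precursor markers were higher, with a median of 1.78, led by Olig2 at 2.60 (11 of 12 without iRGC replicate 1, iRGC replicate 2 or cRGC replicate 2), and some of these markers, such as Atoh7 and Neurod1, were also among the upstream fate factors. The precursor markers summed to 1828, 2021 and 1723 CPM in iRGCs and to 398, 643 and 590 CPM in cRGCs, with Hes6 the most abundant. Of 17 RGC markers 16 were lower in iRGCs, with a median of -1.95, led by Pou4f1 at -2.28, and their sum was 2693, 3763 and 5686 CPM in iRGCs and 14933, 13557 and 16647 CPM in cRGCs. The part of progenitors, precursors and RGC maturity in the results for the 10 genes was not tested.

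The level of each of the 10 genes was therefore also set against the summed progenitor markers of the same library, a description chosen after the values were seen. Ptf1a amounted to 0.307%, 0.279% and 0.299% of the progenitor sum in iRGCs and to 0.372%, 0.291% and 0.353% in cRGCs. These shares overlapped, although the level of Ptf1a itself did not. Prdm13 likewise gave 0.867%, 1.15% and 1.67% in iRGCs and 1.09%, 1.16% and 1.71% in cRGCs. On this scale 6 of the 10 genes overlapped between the populations and the other 4, Slc6a9, Onecut1, Onecut2 and Prox1, had lower shares in every iRGC library. The progenitor sum was itself higher in iRGCs, so that most genes took lower shares there. Of all tested genes 85.1% had lower shares in every iRGC library and 0.690% had higher shares, and the lower shares of these 4 genes are therefore no result about them. Onecut2 took 1.56%, 2.25% and 1.64% in iRGCs and 21.5%, 8.05% and 23.2% in cRGCs. Onecut1 took 0.187%, 0.274% and 0.220% in iRGCs and 2.68%, 1.10% and 2.81% in cRGCs, a gap of similar proportion.

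Set against the neurogenic precursor markers, Ptf1a and Prdm13 took higher shares in every iRGC library than in any cRGC library. Ptf1a gave 1.61%, 1.15% and 1.26% in iRGCs and 0.772%, 0.977% and 0.826% in cRGCs, and Prdm13 4.56%, 4.74% and 7.01% against 2.27%, 3.89% and 3.99%. Onecut1 and Onecut2 took lower shares in iRGCs, and the other 6 genes overlapped. Of all tested genes 3.17% took higher shares of the precursor sum in every iRGC library and 78.5% lower shares, the sum being higher in iRGCs as well.

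**Figure D5:**
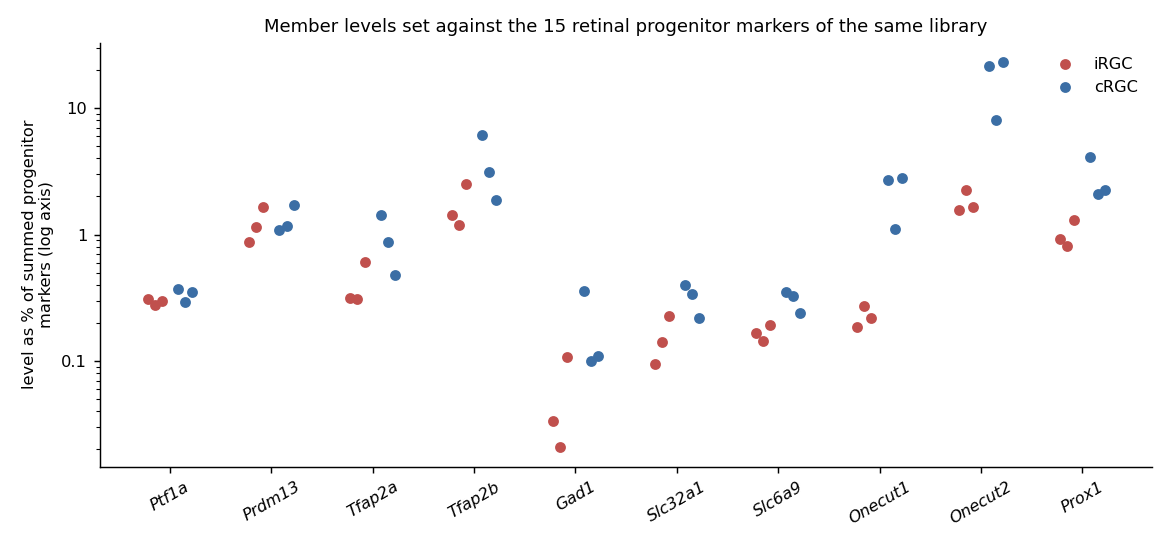
Level of each of the 10 genes as a percentage of the summed level of 15 retinal progenitor markers in the same library (log axis), with 3 iRGC libraries in red and 3 cRGC libraries in blue, replicates 1 to 3 from left to right. Ptf1a lies between 0.279% and 0.372% in all 6 libraries, and Onecut2 between 1.56% and 2.25% in iRGCs and between 8.05% and 23.2% in cRGCs. Of all tested genes 85.1% had lower shares in every iRGC library, so the lower shares of Onecut2 are no result about it.

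Markers of other cells that the sort could hold were examined beside these. Of 7 photoreceptor precursor markers 6 were tested and 5 were higher in iRGCs, led by Otx2 at 2.37 and Prdm1 at 2.35 on the log2 scale, while Rxrg was lower at -1.08. They summed to 807, 642 and 626 CPM in iRGCs and 170, 256 and 206 CPM in cRGCs, with Otx2 the most abundant and Rcvrn at 0 in all libraries but cRGC replicate 3. Bipolar cell markers summed to at most 19.1 CPM in any library. Of 4 genes 2 were tested and Trpm1 was called higher at 3.27, although its levels of 6.14, 17.8 and 0.694 CPM in iRGCs overlapped those of 1.23, 1.03 and 0.29 CPM in cRGCs and iRGC replicate 2 stood far above the rest. Without that library the change was 2.00 and not called (adjusted p = 0.198). Vsx1 and Grm6 were at 0 in cRGCs. Otx2 promotes photoreceptor and bipolar fates, which are alternatives to the amacrine fate. The part of these cells was not tested.

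Of 9 endothelial markers 6 were tested and all of them were higher in iRGCs, led by Pecam1 at 6.41 and Flt1 at 5.25. Pecam1, at 9.65, 53.0 and 0.284 CPM in iRGCs and 0, 0.725 and 0 CPM in cRGCs, and Esam overlapped between the populations, and both were far higher in iRGC replicate 2 than in any other library. The endothelial sum was 445, 604 and 436 CPM in iRGCs and 88.7, 109 and 71.8 CPM in cRGCs, mostly from Kdr, which retinal progenitors also make, and Cdh5 was at 0 in cRGCs. Of 6 mural cell markers 3 were tested and 2 were higher, Rgs5 at 7.76 and Pdgfrb at 2.54, and their sum was 3.73, 4.45 and 3.74 CPM in cRGCs. Pecam1, Flt1, Rgs5 and Pdgfrb were all highest in iRGC replicate 2. Without it Pecam1 was at 4.33 and not called (adjusted p = 0.127), Flt1 at 4.04 and Rgs5 at 4.32 were still called, and the number of markers called higher was 3 of 6 endothelial, 2 of 3 mural, 1 of 6 microglia and 1 of 4 erythroid. Of 7 microglia markers 5 were tested and 3 were higher, with Csf1r, the most abundant, at 3.94 and C1qb at 3.25. Their sum was 13.1, 21.2 and 15.8 CPM in iRGCs and 0.654, 4.18 and 1.45 CPM in cRGCs. Of 5 erythroid markers 4 were tested and all of them were higher, with log2 fold changes of 4.76 for Hbb-bs, the most abundant, and 4.37 for Hba-a1, and their sum was at most 5.11 CPM in a cRGC library. None of the 3 tested markers of pigment epithelium and lens was called. Tyrp1, which was tested, was at most 1.79 CPM, and Cryaa, which was not tested, at most 4.92 CPM. Without iRGC replicate 2, the library richest in mural and erythroid RNA, the log2 fold change was 2.43 for Ptf1a, 2.41 for Prdm13, 1.57 for Tfap2a, 1.73 for Tfap2b, 1.50 for Slc32a1, 1.76 for Slc6a9 and 1.31 for Prox1, and all 7 were still called. Without iRGC replicate 1, the library with little Slc6a4, all 7 were called as well, with log2 fold changes from 1.13 for Prox1 to 2.49 for Prdm13.

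The libraries of 1 population also differed among themselves in these genes. In cRGCs, replicate 2 was the highest for 7 of the 10 genes, the same 7 that rose in iRGCs, and it also had the highest progenitor sum. Replicate 3 was the lowest for 5 genes, Tfap2a, Tfap2b, Gad1, Slc32a1 and Prox1, and the highest for Onecut1 and Onecut2. In iRGCs, replicate 3 was the highest for 6 genes, Prdm13, Tfap2a, Tfap2b, Gad1, Slc32a1 and Prox1, although its progenitor sum of 7249 CPM was the lowest of the 3. Without cRGC replicate 2 all 7 genes were still called higher, with log2 fold changes from 1.37 for Prox1 to 2.65 for Ptf1a.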

How the data were processed

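RNA-seq libraries of 3 iRGC and 3 cRGC samples were analysed, and the 13 ATAC-seq samples were not analysed here. Raw counts per gene were deposited by the authors, who had mapped reads with HISAT2 2.1.0 (mm10) and assigned them to Ensembl genes of GRCm38 with HTSeq 0.11.1. The strand setting is not given in the sources used here, so reads of overlapping genes on opposite strands may not be told apart. Symbols, positions and exon lengths came from GENCODE M21, which matched 46574 of 47069 identifiers. Reads on no gene, 12.3% to 23.2% of the uniquely aligned, stayed out of library sizes.

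The test was that of edgeR 4.0.16 in R 4.3.3 (filterByExpr, TMM, quasi-likelihood test, Benjamini-Hochberg adjustment over 15941 genes), with no covariate. A gene was called at an adjusted p under 0.1. The SE was the size of the fitted change over the square root of its F statistic. The biological coefficient of variation was 36.3%, which limits what 3 libraries per population can show for genes with few counts. Ratios of 2 genes used counts per kilobase with a pseudocount of 0.5 and exact permutation tests in scipy 1.17.1.

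The 10 genes and the 18 lists, of 144 genes, were chosen with earlier results of these data known. Named besides the 10 genes and the population labels were the 2 called genes of each list with the largest change in each direction and a mean of at least 1 CPM, or the 2 most abundant where none was called. Single values of some list genes are not reported here. Other genes named (such as Gad2, Calb2, Pax6, Lhx1, Chat, Thy1 and the E proteins) were chosen after their values were seen. Alternatives were RLE and upper quartile factors, library totals alone and exon length without shared bases (both added after the data were seen), no filter or at least 10 counts in every library, DESeq2 1.42.0, limma 3.58.1 with voom, an adjusted p under 0.05, the replicate number as a block, a pseudocount of 5, and each library left out, for the lists only those that stood apart (added after the data were seen). Sequences came from RefSeq (GRCm38.p6). Figures were drawn with matplotlib 3.10.9.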

Additional observations from a re-analysis of the deposited data

How the results depend on the processing

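The 7 genes higher in iRGCs were called in the same direction by all 14 other fits, and Gad1 in none of them. With an adjusted p under 0.05 the count was also 7. Onecut1 and Onecut2 were called lower in 6 of the 14 fits each. The number of the 10 genes called lower was 2 with no filter, with DESeq2 and with limma voom, 1 with at least 10 counts in every library, and 0 to 2 with 1 library left out. It was 2 without iRGC replicate 2 or cRGC replicate 1 and 1 without cRGC replicate 2. The log2 difference in the ratio of Onecut2 to Onecut1 went from 0.02 to -0.01 without iRGC replicate 1 and to -0.03 without cRGC replicate 2, over a range of -0.03 to 0.08, and the cause was not tested. Taking unshared exon bases as the length left the log2 difference of each ratio as it was, by construction. Scaling by library totals alone moved the median of all genes to 0.20 on the log2 scale and gave 5100 higher and 2842 lower calls (64.2% higher), against 3707 and 3688 (50.1% higher) with TMM. Relative to that shift the 10 genes kept their directions, at -0.36 for Onecut1 and -0.34 for Onecut2 before it is taken off. Libraries with the same replicate number did not deviate together (correlations of -0.0121, -0.0237 and -0.055 across genes), and no library correlated best with its own number. Deviations were taken from means of 3 libraries, so these small values cannot tell whether libraries of the same number were prepared together. With the replicate number as a block 7 of the 10 genes were higher and 0 lower, among 6751 called genes in place of 7395. Gad1 had 47 to 247 reads per library and the largest SE of the 10 genes, 0.631, and why it was not called was not tested.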

Other observations

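Some genes of the lists set cRGC replicate 3 apart from the other cRGC libraries, and they were picked after their values were seen. Th was at 7.73, 5.73 and 19.8 CPM in cRGCs and Onecut3 at 25.9, 35.2 and 69.0 CPM, both highest in replicate 3 together with Onecut1 and Onecut2. Isl2, a factor of cRGCs, was at 130, 112 and 45.7 CPM, Pou4f1 at 861, 672 and 431 CPM and Calb2 at 218, 202 and 73.5 CPM, all lowest in replicate 3 together with Tfap2a and Tfap2b. Isl1, which most RGCs make, was at 644, 533 and 708 CPM and did not share this pattern.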
